A study of Mus musculus with 20 samples.

Results

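The transcripts described here encode 39 proteins of the sarcomere, the contractile unit of striated muscle, other than the myosin heavy chains. They were chosen by name as fast, slow and shared sarcomere genes, and all 39 had a row among the 22660 genes of the deposited table. By role they were 7 troponin genes, 3 tropomyosin genes, 7 genes of actin and of proteins that line or cap the actin filament, 6 genes of myosin light chains and their kinase, 3 myosin-binding protein genes, 4 genes of the M-band and titin, and 9 genes of the Z-disc and desmin. By the fibre type that usually carries them, 13 were fast, 8 slow, 4 cardiac or embryonic and 14 shared.

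RNA was taken from the plantaris, a mostly fast hindlimb muscle, of 20 old mice, with 5 different animals in each of 4 groups. The labels give the age as 2 years, and the methods of the study describe the mice as male C57BL/6J. Mechanical overload (MOV) was produced by removing parts of the soleus and gastrocnemius on both sides, so that the plantaris took over their work, and sham surgery opened the skin only. Each surgery was followed by gavage with vehicle or with D + Q, the senolytic mixture of dasatinib (5 mg/kg) and quercetin (50 mg/kg), on days 7 and 10, and muscles were collected on day 14. For sham mice, the deposited study description instead puts the later gavage on day 14. Sham mice with vehicle, sham mice with D + Q, MOV mice with vehicle and MOV mice with D + Q made up the groups, and the model has no young animals, so age itself could not be compared.

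In a sarcomere, thin filaments of actin run from the Z-disc toward the centre, where thick filaments of myosin are held together by the M-band. Tropomyosin lies along actin, and the troponin complex sits on it. When calcium binds troponin C, the inhibitory subunit troponin I lets go, troponin T passes the change on to tropomyosin, and myosin can pull. Most of these proteins exist as fast, slow and cardiac isoforms from separate genes, and fibres exchange one isoform for another during development, regeneration and chronic loading.

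The total count per mouse was 17887532 to 26234518. Levels are given as TMM-scaled CPM, a gene's counts scaled to a common library size with edgeR's correction for library composition, and the scaling factors were 0.829 to 0.879 and 0.867 to 0.886 in vehicle and D + Q sham mice against 1.06 to 1.23 and 1.13 to 1.24 in vehicle and D + Q MOV mice. The 39 genes together took 10.7 to 12.7% of all counts in every mouse. Vehicle sham mouse 3 had the highest level of its group in 7 of 8 slow genes, and vehicle MOV mouse 5 stood apart for Mybph, so the fold changes that moved most without them are also given that way. Within MOV, vehicle mouse 4 was lowest of its group in 13 of the 14 shared genes and D + Q mouse 3 in 14 of 14, and these were the mice with the highest summed fibroblast markers of their groups. Genes made only in heart muscle were near 0, with summed levels of 0.933 to 3.95, 1.55 to 3.95, 2.60 to 3.91 and 2.14 to 3.22 CPM in sham with vehicle, sham with D + Q, MOV with vehicle and MOV with D + Q for the 3 of 5 markers with a row (Myh6, Nppa and Tnni3). Of these Tnni3, the cardiac troponin I, rose with MOV but stayed under 1 CPM in every mouse.

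Overload with vehicle was accompanied by a rise of slow, cardiac and embryonic sarcomere transcripts and a fall of fast ones. Of the 39 genes, 13 were higher and 18 were lower in vehicle MOV than in vehicle sham muscle at an adjusted p under 0.05 (edgeR quasi-likelihood test, Benjamini-Hochberg over 14601 genes), where 30.7% of all tested genes were higher and 29.8% lower. The 4 cardiac or embryonic genes all rose, 5 of 8 slow genes rose and 2 fell, 0 of 13 fast genes rose and 11 fell, and 4 of 14 shared genes rose and 5 fell. In 9 genes every MOV mouse lay above every sham mouse (23.7% of all tested genes did so), and in 16 every MOV mouse lay below (22.9% of all tested genes). The median log2 fold change was -0.17 over the 39 genes and -0.015 over all tested genes.

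How the libraries were scaled set the balance between higher and lower calls. Without composition factors the median of all genes moved from -0.015 to 0.36 and the calls among the 39 genes from 13 higher and 18 lower to 19 higher and 12 lower, and scaling to 12 other muscle fibre genes gave a median of 0.42 with 21 higher and 9 lower. Of all 14601 tested genes, 7683 were called higher and 1453 lower without composition factors, and 7713 and 1030 with scaling to fibre genes. Relative to the median of all genes, 15 of the 39 genes lay above and 24 below under each of the 6 scalings. Rescaling shifts all genes nearly alike, so this count could hardly change. Of the genes not called, Acta1, Lmod3, Myl1, Myl2, Mylpf and Tpm2 were called higher both without composition factors and with scaling to fibre genes, and Ldb3 and Myot with the latter. The 13 higher calls held under all 6, and 9 lower calls did (Actn3, Mybpc2, Tnnc2, Tnni2, Tnnt3, Tcap, Myoz1, Tmod1 and Tmod4). Both scalings that moved the median of all genes far moved it upward, so they could remove lower calls but hardly higher ones. In whole muscle, fewer fibres and less RNA per fibre cannot be told apart.

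The slow and cardiac troponins made the clearest shift. Tnnt2, the troponin T of heart and of embryonic skeletal muscle, had 1.98, 0.748, 0.903, 1.46 and 1.59 CPM in the 5 vehicle sham mice, in the order of their numbers, and 30.1, 27.4, 29.1, 40.7 and 34.5 in the 5 vehicle MOV mice. No MOV mouse overlapped with a sham mouse, although the sham values rest on 13 to 43 counts per mouse. The rise was the largest among the 39 genes in these mice, 23.9-fold (log2 fold change 4.58 ± 0.201, standard error, adjusted p = 1.71e-09). Tnni1, the slow troponin I, had 4.10, 2.13, 35.4, 8.04 and 7.83 CPM in vehicle sham and 68.5, 95.5, 97.2, 132 and 65.1 in vehicle MOV mice. No MOV mouse overlapped with sham, although sham mouse 3 stood well above the other sham mice. The log2 fold change was 3.03 ± 0.687 (adjusted p = 0.00462) and 4.07 without that mouse.

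Tnnc1, the troponin C shared by slow fibres and heart, had 5.75, 1.44, 39.4, 9.96 and 10.8 CPM in vehicle sham and 45.6, 67.9, 71.4, 86.5 and 37.0 in vehicle MOV mice. Here sham mouse 3 overlapped with the lowest MOV mouse. The log2 fold change was 2.23 ± 0.698 (adjusted p = 0.0223), and 3.16 without sham mouse 3. The adjusted p passed 0.05, up to 0.0512, without sham mouse 1, 4 or 5, and was 0.00117 without sham mouse 3. Tnnt1, the slow troponin T, was at 30.3 ± 23.6 (SD, n = 5) in vehicle sham and 129 ± 30.6 CPM in vehicle MOV mice, with a log2 fold change of 2.11 ± 0.456 (adjusted p = 0.00346) that became 2.71 without sham mouse 3.

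The 3 fast troponins all fell, with no overlap between the groups. Tnnt3, the fast troponin T, had 8381, 6298, 7348, 7719 and 7281 CPM in vehicle sham and 3375, 3211, 3152, 2789 and 3159 in vehicle MOV mice. This was the largest fall of the 39 genes, 2.34-fold lower (log2 fold change -1.23 ± 0.0920, adjusted p = 5.75e-08). Tnni2, the fast troponin I, had 9019, 8091, 8443, 8850.3 and 8767 CPM in vehicle sham and 4822, 4852, 4682, 4090.1 and 4794 in vehicle MOV mice, for a log2 fold change of -0.88 ± 0.0804 (adjusted p = 3.34e-07). For Tnnc2, the fast troponin C, the levels were 8765 ± 459 and 5295 ± 422 CPM (SD, n = 5 each) and the log2 fold change -0.71 ± 0.0833. The plot of troponin transcripts by mouse shows the slow and cardiac genes on a log axis and the fast genes on a linear one.

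**Figure D1:**
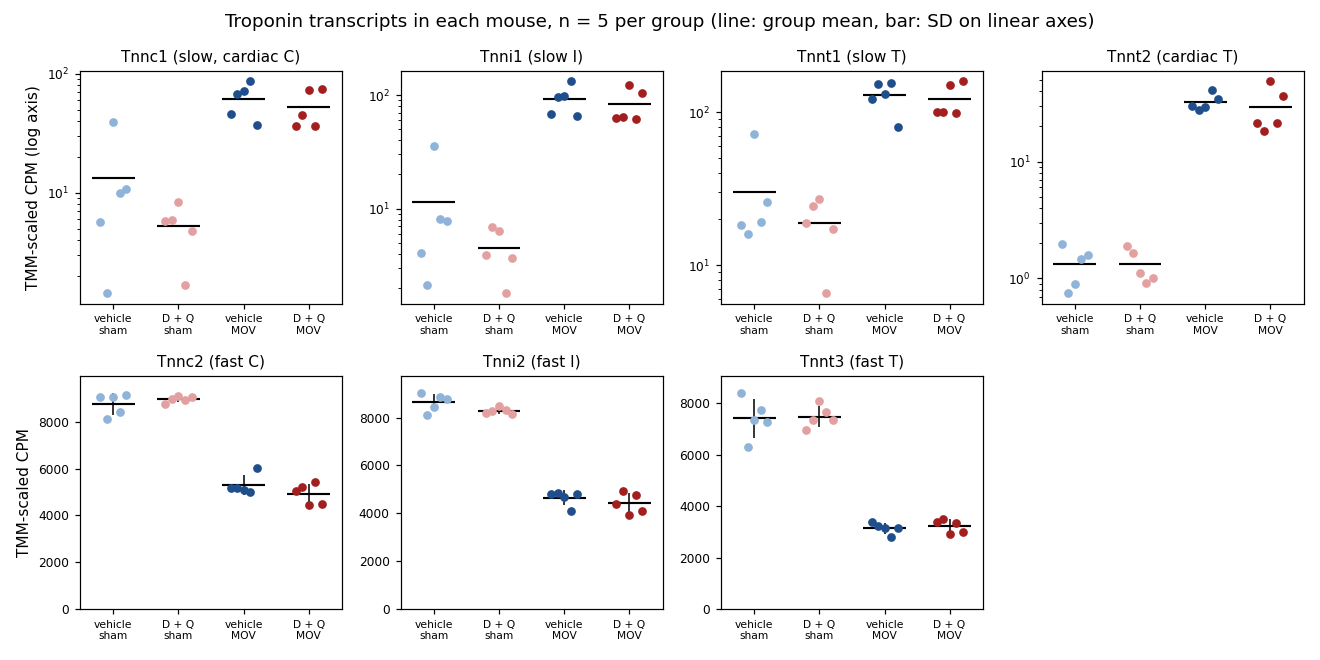
Troponin transcripts in TMM-scaled CPM for each of the 5 mice of the 4 groups, with a line at the group mean. The upper row has a log axis, and the lower row a linear axis from 0 with SD bars. Tnnt2 ranged over 0.748 to 1.98 CPM in vehicle sham and 27.4 to 40.7 in vehicle MOV mice, and the fast Tnnt3 over 6298 to 8381 and 2789 to 3375.

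Tropomyosin changed in the same split. Tpm3, whose muscle product is the slow alpha-tropomyosin, was at 44.4 ± 28.8 (SD, n = 5) in vehicle sham and 134 ± 42.3 CPM in vehicle MOV mice, with sham mouse 3 above the lowest MOV mouse. It rose by a log2 fold change of 1.61 ± 0.425 (adjusted p = 0.00991). In the annotation used here, 68.8% of its 31-base words are also found in other genes, most of them in the processed copy Tpm3-rs7, so its reads could have been divided between them. The counts are per gene, so the muscle product was not told apart from any other product of Tpm3. Contractile genes of non-muscle and smooth muscle cells rose in 16 of 18 with vehicle MOV, and the part of such cells in the Tpm3 value was not tested. Tpm1, the fast alpha-tropomyosin, fell by 0.59 on the log2 scale (standard error 0.10, adjusted p = 0.000195), a call lost under some other scalings. Tpm2, the beta-tropomyosin of both fibre types, had 6707 ± 524 and 6207 ± 719 CPM (SD, n = 5 each) and did not pass the test (log2 fold change -0.099, which became 0.27 with total counts only).

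The skeletal actin Acta1 had the highest CPM of the 39 transcripts and was not called with overload in vehicle mice. It had 25387, 22643, 23423, 23908 and 23392 CPM in vehicle sham and 23452, 24941, 20134, 18607 and 25648 in vehicle MOV mice. The groups overlapped, and the log2 fold change was -0.062 ± 0.1002 (adjusted p = 0.614), with the opposite sign under total counts only (0.31) and under scaling to fibre genes (0.36). Its cardiac counterpart Actc1, the actin of heart and of embryonic muscle, had 5.06, 4.37, 7.48, 11.5 and 19.1 CPM in vehicle sham and 76.4, 95.7, 135, 246 and 104 in vehicle MOV mice. No mice overlapped, and the rise was 14.1-fold (log2 fold change 3.81 ± 0.514, adjusted p = 0.000209).

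Among proteins that cap or lengthen the thin filament, the tropomodulins fell and a leiomodin rose. Tmod4, the skeletal muscle tropomodulin that caps the pointed end of actin, had 513, 431, 461, 486 and 489 CPM in vehicle sham and 245, 264, 243, 234 and 236 in vehicle MOV mice. It was 1.93-fold lower with no overlap (log2 fold change -0.95 ± 0.0706, adjusted p = 5.24e-08). Tmod1, its relative in heart and skeletal muscle, fell by 0.60 (adjusted p = 6.5e-05). Lmod2, a leiomodin that lets thin filaments grow, rose by a log2 fold change of 0.77 ± 0.144 (adjusted p = 0.000477), while Lmod3 had 162 ± 12.5 and 146 ± 13.3 CPM (SD, n = 5 each) and was not called. Neb, which encodes nebulin, the giant protein along the thin filament, fell by 0.55 (adjusted p = 0.000872), a call lost under some other scalings.

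Of the myosin light chains, the embryonic form rose and the 2 main fast forms did not pass the test. Myl4, the essential light chain of the atria and of embryonic muscle, had 10.8, 3.34, 5.93, 7.92 and 6.01 CPM in vehicle sham and 59.8, 77.8, 88.8, 151 and 72.5 in vehicle MOV mice. All MOV mice were above all sham mice (log2 fold change 3.73 ± 0.359, adjusted p = 1.65e-05). Myl1, the fast essential light chain, and Mylpf, the fast regulatory light chain, had log2 fold changes of -0.11 ± 0.0851 and 0.060 ± 0.0803, neither called. Both were called higher under other scalings, with 0.27 and 0.44 for total counts only and 0.32 and 0.49 for scaling to fibre genes. For Myl1, 26% of its 31-base words are shared with other genes, mostly the pseudogene Mylf-ps. Myl2, the slow regulatory light chain, had a log2 fold change of 0.45 ± 0.239 (adjusted p = 0.131). It was called by DESeq2 (0.46, adjusted p = 0.0403), with total counts only (0.83) and with scaling to fibre genes (0.89). It also passed the test without MOV mouse 5 (0.62, adjusted p = 0.0118) and without sham mouse 3 (0.59, adjusted p = 0.0488).

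Unlike the slow troponins, Myl3, the essential light chain of slow fibres and heart, was lower in MOV (71.0 ± 21.3 against 45.1 ± 11.2 CPM, SD, n = 5 each). Its adjusted p was 0.0365 at a log2 fold change of -0.64, and the call was lost with total counts only, with scaling to fibre genes and in 7 of the 10 fits that left out 1 mouse, with -0.45 (adjusted p = 0.0655) without sham mouse 3. Mylk2, the calmodulin-dependent kinase that phosphorylates the fast regulatory light chain, had 775, 614, 794, 851 and 819 CPM in vehicle sham and 551, 561, 438, 346 and 314 in vehicle MOV mice. It fell by 0.79 (standard error 0.16, adjusted p = 0.000922) without overlap, a call lost with scaling to fibre genes (-0.36).

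Mybph, which encodes myosin-binding protein H of the thick filament, had 11.2, 15.3, 18.4, 4.73 and 11.3 CPM in vehicle sham and 52.3, 249.97, 58.6, 85.6 and 494 in vehicle MOV mice. The groups did not overlap, and MOV mouse 5 and then mouse 2 stood far above the other 3 MOV mice. The log2 fold change was 3.96 ± 0.793 (adjusted p = 0.00236) and 3.22 without MOV mouse 5. Mybpc2, the fast myosin-binding protein C that bridges thick and thin filaments, had 6620.3, 4957, 5861, 6267 and 5982 CPM in vehicle sham and 3255, 3499.7, 2893, 2789.8 and 2863 in vehicle MOV mice, for a log2 fold change of -0.94 ± 0.0976 (adjusted p = 1.13e-06). Its slow relative Mybpc1, which fast muscles also make, fell by 0.44 (adjusted p = 0.00193), less than Mybpc2, and that call was lost under some other scalings.

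The M-band genes divided by isoform. Myom3, the myomesin of slow and type 2A fibres, rose from 189 ± 26.1 to 443 ± 149 CPM (SD, n = 5 each; log2 fold change 1.24 ± 0.211, adjusted p = 0.000425). Myom1 and Myom2, the general and the fast myomesin, fell by 0.61 and 0.39, and Myom2 had the opposite sign under scaling to fibre genes (0.029). The call of Myom1 was lost under that scaling (-0.19). Ttn, which encodes titin, the spring that runs from Z-disc to M-band, had 13673, 12708, 13279.6, 12737 and 13376 CPM in vehicle sham and 8689, 10115, 9207, 6331 and 8835 in vehicle MOV mice. It fell by 0.59 (standard error 0.11, adjusted p = 0.000244), a call lost under some other scalings, and the groups did not overlap.

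In the Z-disc, the isoforms of alpha-actinin and of myozenin moved apart. Actn3, the fast alpha-actinin that cross-links actin at the Z-disc, had 7383, 5580.2, 7389, 7396 and 6835 CPM in vehicle sham and 4439.7, 4735, 3914, 3609.9 and 3879 in vehicle MOV mice, a fall of 0.74 (standard error 0.10, adjusted p = 2.15e-05). Actn2, the alpha-actinin of all fibres, rose from 1309 ± 326 to 2364 ± 462 CPM (SD, n = 5 each; log2 fold change 0.86 ± 0.172, adjusted p = 0.000811). Myoz2, the slow myozenin that tethers calcineurin to the Z-disc, rose by 1.23 (adjusted p = 7.39e-06), and its fast relatives Myoz1 and Myoz3 fell by 0.78 and 0.44. The call of Myoz3 was lost with total counts only (-0.069) and with scaling to fibre genes (-0.020).

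Tcap, the titin cap at the Z-disc, had 2991, 3102, 2871, 3076 and 2598 CPM in vehicle sham and 1678, 1746, 1618, 1241 and 1488 in vehicle MOV mice. It fell by 0.90 (standard error 0.10, adjusted p = 1.76e-06) with no overlap. Des, which encodes desmin, the intermediate filament that links Z-discs of neighbouring myofibrils, had 3787, 4129.6, 3897, 3904 and 3598 CPM in vehicle sham and 5368, 6251, 4103, 3761 and 5510.4 in vehicle MOV mice. Mice 3 and 4 of MOV overlapped with sham, and the log2 fold change was 0.38 ± 0.123 (adjusted p = 0.0138). Myot and Ldb3, which encode the actin-binding myotilin and the PDZ and LIM protein ZASP, had log2 fold changes of -0.18 and -0.17, not called and of opposite sign with total counts only (0.19 and 0.20).

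**Figure D2:**
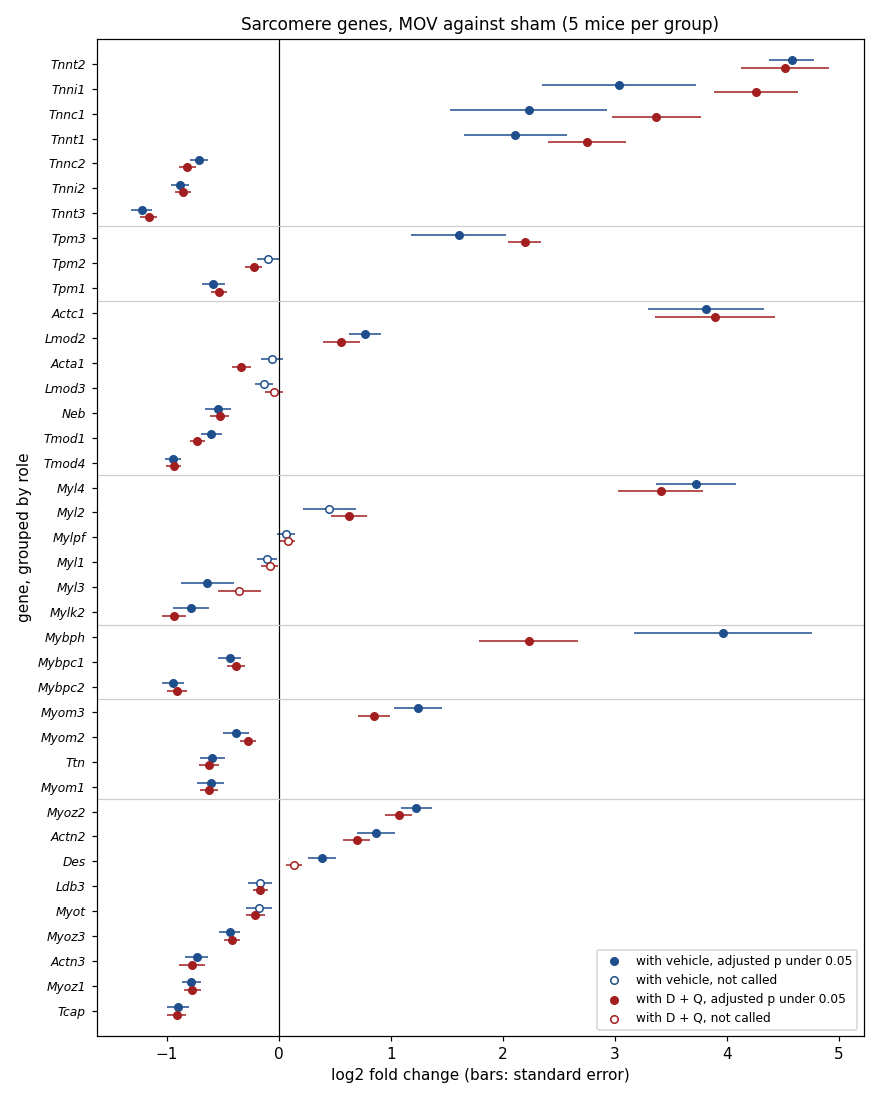
Log2 fold change of MOV against sham with its standard error for the 39 genes, grouped by role, with vehicle in blue and with D + Q in red. Filled points passed the edgeR test at an adjusted p under 0.05. With vehicle the points run from -1.23 for the fast Tnnt3 to 4.58 for the cardiac Tnnt2, while the slow isoforms Myl3 (-0.64) and Mybpc1 (-0.44) lie left of 0 and the fast Mylpf (0.060) lies near it.

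The promoters of genes that moved in vehicle mice are shown because several carry short motifs known from muscle genes. RefSeq's promoter table (assembly GRCm38.p6) held an entry for 28 of the 39 genes, with 33 start sites, and the 250 bases before each start were searched on both strands. The motifs were the CArG box read by serum response factor, the MEF2 site, the TATA box (TATAAA), the E-box (CANNTG) read by myogenic factors, and the TEAD site (CATTCC). A CArG box was present in 18.2% of these 33 promoters and in 1.47% of all 32851, and a MEF2 site in 9.09% and 2.92%. Counted by gene, 5 of the 28 had a CArG box, because the start sites of Ldb3 lie close and share the same box. The shares of promoters were 27.3% and 12.6% for the TEAD site, 15.2% and 12.4% for the TATA box, and 84.8% and 66.2% for the E-box, whose letters can overlap those of other motifs. The lines that follow give the last 100 bases before the start for the 11 genes that were called in vehicle mice and hold a match other than an E-box there, from the 5′ to the 3′ end, with matches in capitals. The rule for showing them was set after the fold changes were known.
Tnnt2 (chr1:135836234-135836333, plus strand): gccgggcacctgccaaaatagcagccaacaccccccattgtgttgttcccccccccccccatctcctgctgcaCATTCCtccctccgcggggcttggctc
Mybph (chr1:134193348-134193447, plus strand): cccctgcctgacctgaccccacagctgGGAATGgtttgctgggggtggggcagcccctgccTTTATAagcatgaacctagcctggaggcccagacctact
Actc1 (chr2:114052876-114052975, minus strand): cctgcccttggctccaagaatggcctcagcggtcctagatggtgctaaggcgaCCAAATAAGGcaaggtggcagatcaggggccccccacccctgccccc
Tnnc1 (chr14:31208212-31208311, plus strand): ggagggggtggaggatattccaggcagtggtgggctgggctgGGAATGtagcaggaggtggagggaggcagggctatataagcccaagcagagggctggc
Tnnt1 (chr7:4515976-4516075, minus strand): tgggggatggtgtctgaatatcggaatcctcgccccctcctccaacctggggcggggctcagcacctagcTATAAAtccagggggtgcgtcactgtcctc
Myom3 (chr4:135759615-135759714, plus strand): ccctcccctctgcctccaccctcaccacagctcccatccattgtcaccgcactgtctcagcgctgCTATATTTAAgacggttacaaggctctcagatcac
Myoz2 (chr3:123034988-123035087, minus strand): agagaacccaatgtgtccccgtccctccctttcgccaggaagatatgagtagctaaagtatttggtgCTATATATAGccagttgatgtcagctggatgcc
Mybpc2 (chr7:44524670-44524769, minus strand): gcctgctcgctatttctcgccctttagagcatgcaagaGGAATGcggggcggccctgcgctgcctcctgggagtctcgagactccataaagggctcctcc
Myl3 (chr9:110763578-110763677, plus strand): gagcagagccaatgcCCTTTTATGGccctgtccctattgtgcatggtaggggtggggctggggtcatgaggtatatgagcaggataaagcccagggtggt
Myom1 (chr17:71019457-71019556, plus strand): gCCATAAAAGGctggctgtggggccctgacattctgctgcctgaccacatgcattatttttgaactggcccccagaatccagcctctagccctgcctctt
Tpm1 (chr9:67049214-67049313, minus strand): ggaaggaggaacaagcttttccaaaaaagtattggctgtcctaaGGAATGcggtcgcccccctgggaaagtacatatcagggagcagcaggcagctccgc

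The first 7 of these genes rose in vehicle MOV muscle and the last 4 fell. The capitals are a TEAD site in Tnnt2, Tnnc1, Mybpc2 and Tpm1, a TEAD site followed by a TATA box in Mybph, a TATA box in Tnnt1, a CArG box in Actc1, Myl3 and Myom1, and a MEF2 site in Myom3 and Myoz2. The TEAD and CArG matches thus stood in genes of both directions. E-box aside, no motif matched at the other listed start site of Tnnt2. A match describes these letters only, and binding was not measured.

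With D + Q, overload gave a similar set of calls in a separate set of 10 mice. In D + Q MOV against D + Q sham muscle, 13 of the 39 genes were higher and 21 lower (edgeR, adjusted over 14913 genes), where 34.4% of all tested genes were higher and 30.9% lower. Of the genes called higher, 12 were called in both treatments, which is 92.3% of either list, and of those called lower 17 were, which is 94.4% of the vehicle list and 81.0% of the D + Q list. No gene was called in opposite directions. Des and Myl3 passed the test with vehicle but not with D + Q, and Myl2, Acta1, Tpm2, Myot and Ldb3 passed with D + Q but not with vehicle. Myl1, Mylpf and Lmod3 passed in neither. Every MOV mouse lay above every sham mouse in 9 genes (26.2% of all tested genes) and below in 19 (26.9%).

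The median of all genes with D + Q moved from 0.023 to 0.39 with total counts only, which gave 19 higher and 14 lower among the 39, and to 0.50 with scaling to fibre genes, which gave 22 higher and 12 lower. Of all 14913 tested genes, 8392 were called higher and 1654 lower with total counts only, and 9273 and 1012 with scaling to fibre genes. All 13 higher calls held under the 6 scalings and 12 of the 21 lower calls did, which added Mylk2, Myom1 and Ttn to the 9 named for vehicle. Here too the large shifts were upward only, which can remove or reverse lower calls but hardly remove higher ones. Of the genes not called, Des, Lmod3, Myl1 and Mylpf were called higher both with total counts only and with scaling to fibre genes. Of the lower calls, Acta1, Myom2, Tpm2, Myot and Ldb3 took the opposite sign under both of these scalings, and Mybpc1 and Myoz3 under scaling to fibre genes. Among them, Ldb3 and Tpm2 were called higher with total counts only (0.20 and 0.14, adjusted p = 0.00332 and 0.0390 from edgeR). Acta1 was called higher with scaling to fibre genes (0.13, adjusted p = 0.0413 from edgeR).

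The slow and cardiac troponins in D + Q mice rose without overlap. Tnnt2 had 1.89, 1.64, 1.12, 0.923 and 1.02 CPM in D + Q sham and 21.3, 18.2, 48.4, 21.4 and 36.0 in D + Q MOV mice (log2 fold change 4.52 ± 0.392, adjusted p = 5.6e-06). Tnni1 had 3.89, 6.82, 6.39, 1.80 and 3.67 CPM in D + Q sham and 62.7, 64.2, 122, 61.7 and 104 in D + Q MOV mice (log2 fold change 4.26 ± 0.372, adjusted p = 8.86e-06). Tnnc1 had 5.83, 5.91, 8.39, 1.70 and 4.79 CPM in D + Q sham and 36.6, 45.0, 72.8, 36.4 and 75.3 in D + Q MOV mice (log2 fold change 3.37 ± 0.396, adjusted p = 6.85e-05). D + Q MOV mice 3 and 5 were the 2 highest in each. The log2 fold changes of Tnnt1 and Tpm3 were 2.75 and 2.19, each larger than with vehicle, as those of Tnni1 and Tnnc1 were. Without vehicle sham mouse 3 the vehicle values were 4.07, 3.16, 2.71 and 2.08 for Tnni1, Tnnc1, Tnnt1 and Tpm3.

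The other cardiac and embryonic genes rose in D + Q mice as well. Actc1 had 3.47, 25.8, 6.10, 9.38 and 7.23 CPM in D + Q sham and 169.8, 85.0, 215, 115 and 148 in D + Q MOV mice, with sham mouse 2 well above the other sham mice (log2 fold change 3.89 ± 0.533, adjusted p = 0.000198, and 4.52 without sham mouse 2). Myl4 had 5.72, 10.1, 5.22, 10.0 and 7.64 CPM in D + Q sham and 57.0, 48.5, 132, 55.0 and 103.4 in D + Q MOV mice (log2 fold change 3.41 ± 0.380, adjusted p = 4.89e-05). Mybph had 7.16, 20.9, 5.68, 27.8 and 9.11 CPM in D + Q sham and 68.4, 61.9, 82.6, 46.8 and 59.8 in D + Q MOV mice (log2 fold change 2.23 ± 0.442, adjusted p = 0.00194). No D + Q MOV mouse reached the level of vehicle MOV mice 2 and 5 for Mybph.

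Fast genes fell in D + Q mice as well. Tnnt3 had 6958, 7333, 8068, 7664 and 7327 CPM in D + Q sham and 3368, 3499, 2919, 3358 and 2975 in D + Q MOV mice (-1.16 ± 0.0741, adjusted p = 4.77e-10). The ranges in D + Q sham and D + Q MOV mice were 442 to 509 and 221 to 261 CPM for Tmod4, 5751 to 7224 and 2878 to 3676 for Mybpc2, and 8137 to 8483 and 3947 to 4917 for Tnni2, all without overlap. Actn3 had 6311, 7416, 8502, 10164 and 7675 CPM in D + Q sham and 5122, 4569, 4353, 4855 and 3698 in D + Q MOV mice (-0.78 ± 0.117, adjusted p = 2.85e-05). The log2 fold changes were -0.94 for Mylk2, -0.82 for Tnnc2, -0.78 for Myoz1, -0.42 for Myoz3, -0.54 for Tpm1 and -0.28 for Myom2. Myl1 and Mylpf, at -0.085 and 0.077, were not called, but were higher with total counts only (0.28 and 0.44).

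Among the shared genes, Tcap fell by 0.91, Tmod1 by 0.73, Myom1 by 0.63 and Neb by 0.53 in D + Q mice, and Myom3, Actn2 and Lmod2 rose by 0.85, 0.69 and 0.56. Ttn had 12125, 13358, 12398, 14242 and 13971 CPM in D + Q sham and 9254, 9007, 6947, 8849.6 and 7354 in D + Q MOV mice (-0.63 ± 0.0902, adjusted p = 8.23e-06). Acta1 had 25603, 23637, 25141, 25216 and 25699 CPM in D + Q sham and 21128, 20983, 16007, 19624 and 18244 in D + Q MOV mice. All 5 MOV mice were below all sham mice, and the log2 fold change was -0.34 ± 0.0829 (adjusted p = 0.00167), with the opposite sign under total counts only (0.025). With scaling to fibre genes, Acta1 was instead called higher (0.13, adjusted p = 0.0413 from edgeR). Des, at 3868 ± 267 and 4104 ± 333 CPM (SD, n = 5 each), was not called (0.13, adjusted p = 0.128). It was called higher with total counts only (0.50), with scaling to fibre genes (0.61) and without D + Q MOV mouse 3 (0.19, adjusted p = 0.0194). The falls of Myot and Ldb3, -0.21 and -0.17 on the log2 scale, were lost in 6 and 7 of the 10 fits that left out 1 mouse. Of the slow genes, Myoz2 and Myl2 rose by 1.07 and 0.62, Mybpc1 fell by 0.38 and Myl3 was not called (-0.35).

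Except for Mybpc1, the slow or cardiac gene of each isoform pair stayed below its partner in every mouse. Levels per kilobase of the canonical transcript were used to give the slow or cardiac gene's percent of a pair, as a description without a test. Tnni1 was 0.0888% ± 0.107 of Tnni1 plus Tnni2 in vehicle sham (SD, n = 5), 0.0360% ± 0.0163 in D + Q sham, 1.31% ± 0.483 in vehicle MOV and 1.26% ± 0.535 in D + Q MOV mice. Even after MOV, fast troponin I transcripts therefore outnumbered slow ones in every mouse, with at most 2.09% slow. Tnnc1 went from 0.156% ± 0.170 to 1.22% ± 0.450 of Tnnc1 plus Tnnc2 with vehicle, and from 0.0617% ± 0.0277 to 1.15% ± 0.511 with D + Q. Tnnt1 reached the largest share of the troponins, 6.19% ± 1.62 in vehicle MOV and 5.78% ± 1.79 in D + Q MOV mice, from 0.650% ± 0.503 and 0.400% ± 0.161 in sham.

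Other pairs differed in where they started. Tpm3 went from 0.342% ± 0.221 to 1.57% ± 0.574 of Tpm3 plus Tpm1 with vehicle and from 0.248% ± 0.0290 to 1.65% ± 0.432 with D + Q, counting all products of both genes. Myoz2 went from 1.69% ± 0.277 to 6.42% ± 0.817 of Myoz2 plus Myoz1 with vehicle and from 1.54% ± 0.334 to 5.32% ± 0.864 with D + Q, and no MOV mouse overlapped with a sham mouse. Mybpc1 was already close to its partner Mybpc2 in level, at 42.5% ± 3.61 and 38.4% ± 3.13 in sham, and was 51.0% ± 2.77 and 47.3% ± 2.45 in MOV. Of the light chains, Myl2 lay between 1.59% ± 0.275 and 2.31% ± 0.496 of Myl2 plus Mylpf and Myl3 between 0.768% ± 0.206 and 1.11% ± 0.374 of Myl3 plus Myl1 over the group means. Actc1 stayed under 1% of Actc1 plus Acta1, at 0.0182% ± 0.0117 and 0.0192% ± 0.0173 in sham and 0.280% ± 0.186 and 0.356% ± 0.158 in MOV. The plot of isoform shares gives each mouse.

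**Figure D3:**
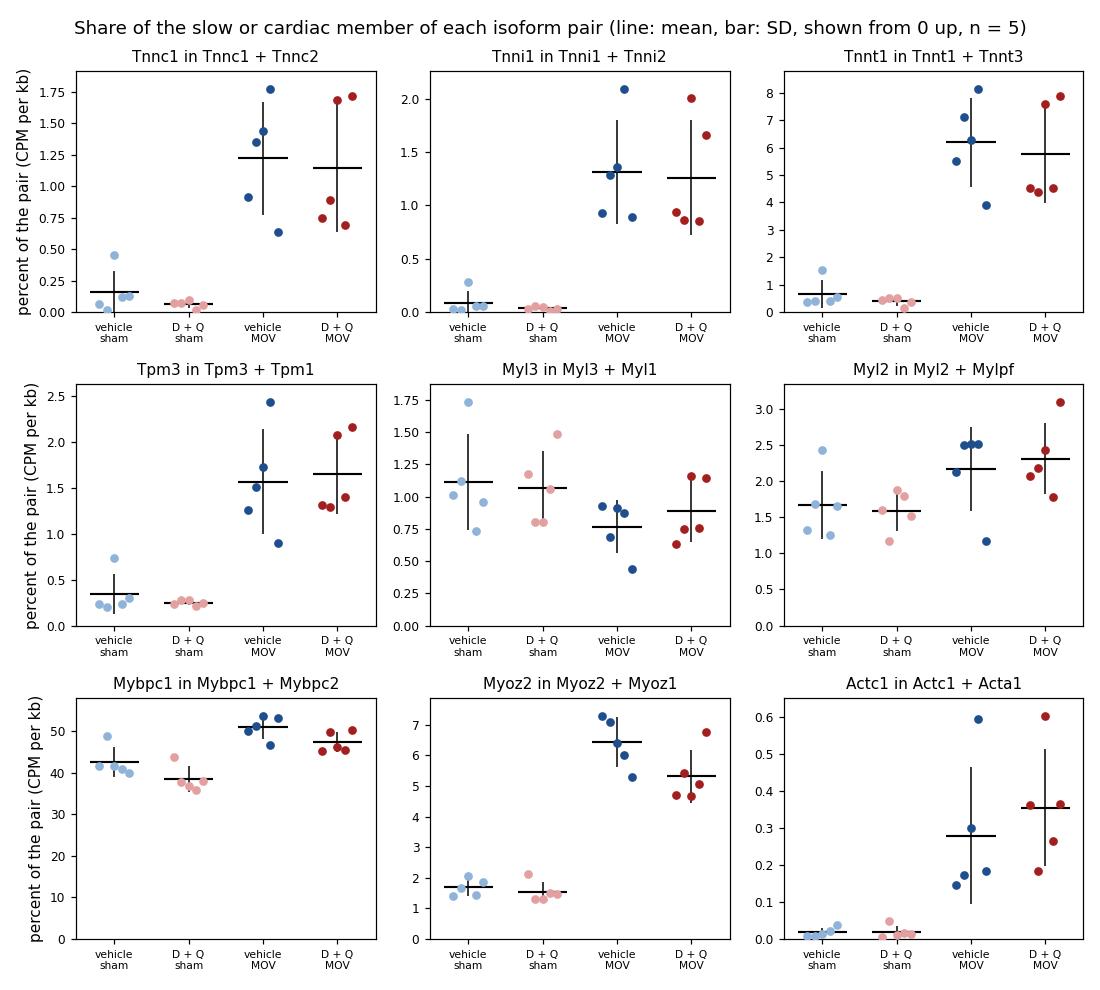
Percent of the slow or cardiac gene in each of 9 isoform pairs, from CPM per kilobase, for each of the 5 mice of the 4 groups, with the mean and SD and linear axes from 0. Troponin, Tpm3, Myoz2 and Actc1 shares are higher in MOV than in sham groups, and Mybpc1 lies between 35.8% and 53.7% in all 20 mice.

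Acta1 had the highest level per kilobase before and after overload, and the order of the genes that followed differed. In vehicle sham muscle Acta1 led with 14412 CPM per kilobase, followed by Tnni2 and Tnnc2 with 11795 and 11655, then Mylpf with 8174, Myl1 with 6770.5, Tpm1 with 5596 and Tnnt3 with 4222. Tnni2 and Tnnc2 did not differ beyond their spread over mice. At the bottom stood Tnnt2 with 0.752 and Actc1 with 2.60. In vehicle MOV muscle Acta1 had 13687, Mylpf 8449, Tnnc2 7042, Tnni2 6349.8 and Myl1 6229 CPM per kilobase, and Tnnt2, at 18.2, was again the lowest. Canonical transcripts come from GENCODE vM39 and can be longer than the transcripts these muscles make, which lowers levels per kilobase.

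D + Q and vehicle were compared within MOV, where the study asked whether clearing senescent cells changed the overload response. None of the 39 genes had an adjusted p under 0.05 in edgeR, where 0% of 15238 tested genes did, and the lowest adjusted p of the 39 was 0.523. DESeq2 called 4 genes higher and 4 lower among all genes and 0 of the 39. The study reports far more differentially expressed genes for this comparison, also with DESeq2, and the reason for the difference was not tested. At an unadjusted p under 0.05, 0 of the 39 were higher with D + Q, where 4.19% of all genes were, and 6 were lower, where 4.61% were. By sign alone, 32 of the 39 and 14 of 14 shared genes were lower with D + Q, where 49.5% of all genes were. Leaving out single mice gave 28 of 39 (without vehicle MOV mouse 2) to 34 of 39 (without vehicle MOV mouse 5). The median over the 39 was -0.11 on the log2 scale, against 0.0020 over all genes. The sign count was 28 of 39 with total counts only and 22 of 39 with scaling to fibre genes (12 of 14 shared genes), and 32 of 39 lay below the median of all genes under every scaling. Rescaling shifts all genes nearly alike, so the last of these counts could hardly change. In 0 genes did the groups separate, as 0.755% of all genes did in each direction.

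The 6 genes at an unadjusted p under 0.05 included 4 of the Z-disc and desmin set. Actn2 had 2400.2, 2854, 2056, 1757 and 2753 CPM in vehicle MOV and 1727, 1958, 1516, 1781 and 1996 in D + Q MOV mice (log2 fold change -0.41 ± 0.133, unadjusted p = 0.00825, adjusted p = 0.523 from edgeR). Myom3 had 359.6, 562, 368, 288 and 639 CPM in vehicle MOV and 266, 329, 212, 291 and 347 in D + Q MOV mice (-0.63 ± 0.221, unadjusted p = 0.0162, adjusted p = 0.523 from edgeR). In both genes vehicle MOV mice 2 and 5 were the 2 highest and vehicle MOV mouse 4 lay within the D + Q range. Myoz2 had 245, 287, 217, 176 and 188 CPM in vehicle MOV and 158, 198, 147, 188 and 201 in D + Q MOV mice (-0.33 ± 0.135, unadjusted p = 0.0292 from edgeR).

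Ldb3 had 1729, 2068, 1632, 1466 and 2104 CPM in vehicle MOV and 1488, 1673, 1343, 1566 and 1518 in D + Q MOV mice (-0.25 ± 0.112, unadjusted p = 0.0383 from edgeR). Des had 5368, 6251, 4103, 3761 and 5510.4 CPM in vehicle MOV and 4336, 4392, 3551, 4117 and 4124 in D + Q MOV mice (-0.29 ± 0.135, unadjusted p = 0.0463 from edgeR). Mybph, whose values are given above, had the largest difference, -1.57 ± 0.648 (unadjusted p = 0.0391 from edgeR), and -0.80 without vehicle MOV mouse 5 (unadjusted p = 0.119 from edgeR). Adjusted p-values of Myoz2, Ldb3, Des and Mybph were 0.547, 0.547, 0.561 and 0.547. How many of the 39 passed an unadjusted p under 0.05 depended on single mice, from 1 without vehicle MOV mouse 2 to 13 without vehicle MOV mouse 4, all of them lower with D + Q. Actn2 was among them in each of these fits.

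**Figure D4:**
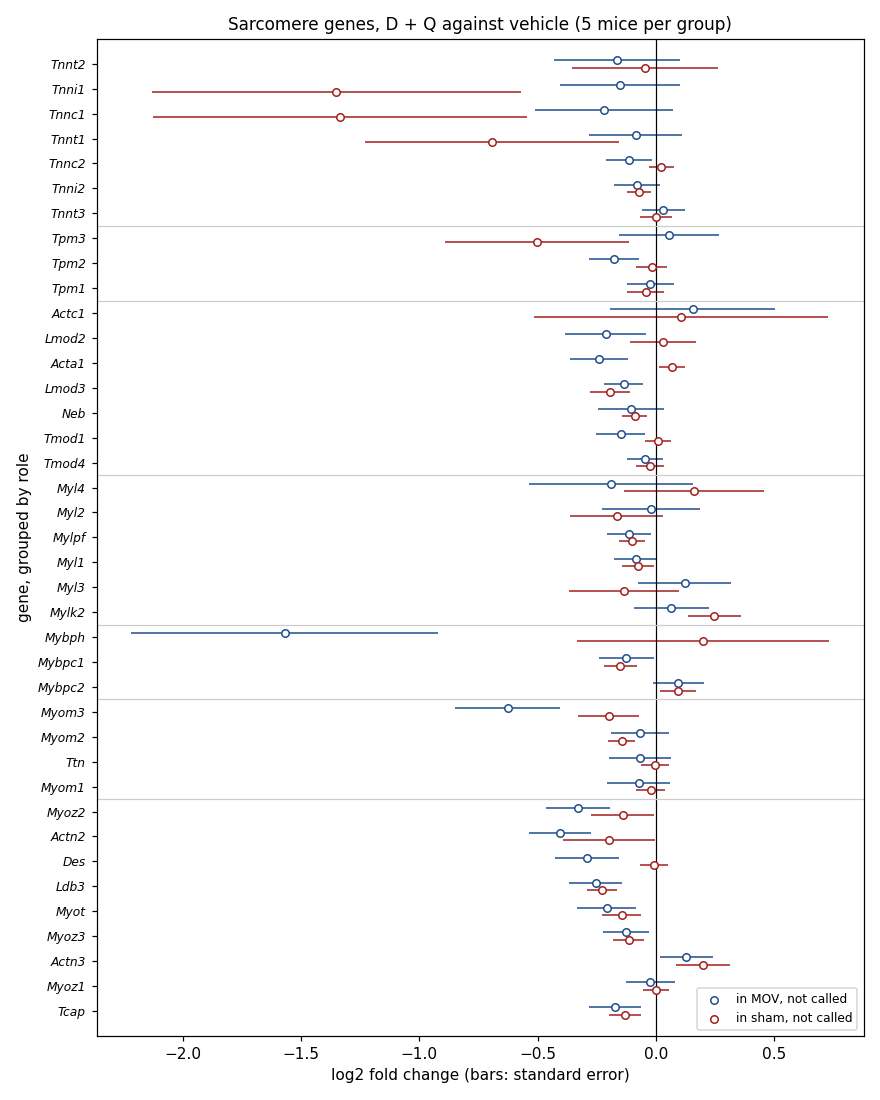
Log2 fold change of D + Q against vehicle with its standard error for the 39 genes, in MOV in blue and in sham in red. All points are open because none passed an adjusted p under 0.05, and most lie close to 0, with Mybph in MOV at -1.57 and Tnni1 and Tnnc1 in sham at -1.35 and -1.34 apart from the rest (-0.30 and -0.40 without vehicle sham mouse 3).

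Of the 6 genes that rose most and the 6 that fell most with overload, Mybph alone passed an unadjusted p under 0.05 between the treatments in MOV. In MOV the log2 fold changes of D + Q against vehicle were -0.16 ± 0.266 for Tnnt2, -0.15 ± 0.254 for Tnni1, -0.22 ± 0.292 for Tnnc1, -0.086 ± 0.196 for Tnnt1, 0.15 ± 0.350 for Actc1 and -0.19 ± 0.348 for Myl4, with overlapping mice in each. Among the largest falls they were 0.031 ± 0.0922 for Tnnt3, -0.079 ± 0.0968 for Tnni2, -0.048 ± 0.0759 for Tmod4 and 0.094 ± 0.106 for Mybpc2. Tcap and Mylk2, the other members of that set, had -0.17 and 0.064. Tnnt1 and Actn3 (0.13 ± 0.111) are given beside these sets and belong to neither. A p that misses the threshold does not show that the treatments acted alike.

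Markers of other cells and of stress were read beside this comparison. Of 7 fibroblast markers, 0 passed an adjusted p under 0.05 and 5 were higher with D + Q at an unadjusted p under 0.05, where 4.19% of all genes were. Their summed levels were 5956 to 11801 CPM in vehicle MOV and 10555 to 14658 in D + Q MOV mice. Of 15 tested sarcomere assembly and chaperone genes, 0 were called and 1 was lower with D + Q at an unadjusted p under 0.05, where 4.61% of all genes were. The summed level of the list was 3754 to 7492 CPM in vehicle MOV and 3462 to 4512 in D + Q MOV mice. The upper end with vehicle was mouse 5. This mouse, the highest in Mybph, was also the highest in the heat shock protein gene Hspb1 (1646 CPM, against 621 in mouse 2, the next) and the filamin gene Flnc (5962 against 3258 CPM in mouse 2). Their part in the differences between treatments was not tested.

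Without overload, the sarcomere genes were also not called between D + Q and vehicle. None of the 39 had an adjusted p under 0.05, where 0.215% of 13926 tested genes did in edgeR, and the lowest adjusted p was 0.213, for Ldb3. DESeq2 called 100 genes higher and 25 lower among all genes and 0 of the 39. At an unadjusted p under 0.05, 1 of the 39 was higher, where 5.39% of all genes were, and 4 were lower, where 4.80% were. These counts depended on single mice, from 0 higher and 1 lower without D + Q sham mouse 3 to 2 higher and 7 lower without D + Q sham mouse 1, and 1 was lower with total counts only or with scaling to fibre genes. Ldb3 was among them in each fit without 1 mouse. Ldb3 had 1996, 2347, 2088, 1929.7 and 1869 CPM in vehicle sham and 1868, 1772, 1713, 1799.7 and 1651 in D + Q sham mice, with every D + Q mouse below every vehicle mouse and the nearest pair almost equal (-0.23 ± 0.0652, unadjusted p = 0.00260 from edgeR). Ldb3 was the only one of the 39 whose groups did not overlap, where 0.79% of all genes were lower and 1.34% higher without overlap.

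The other 4 genes overlapped between treatments. Myom2 had 1708, 1959, 1748, 1735 and 1574 CPM in vehicle sham and 1602, 1583, 1546, 1652 and 1568 in D + Q sham mice (-0.15 ± 0.0587, unadjusted p = 0.0233 from edgeR). Lmod3 had 174, 175, 162, 151 and 148 CPM in vehicle sham and 162, 154, 130.3, 117 and 149.9 in D + Q sham mice (-0.19 ± 0.0856, unadjusted p = 0.0387 from edgeR). Mybpc1 had 5199.5, 5240.5, 4624, 4780.0 and 4386 CPM in vehicle sham and 4961, 3943, 4353, 4462 and 4266 in D + Q sham mice (-0.15 ± 0.0696, unadjusted p = 0.0439 from edgeR). All 3 encode structural proteins of the M-band, thin or thick filament, and in each the treatments overlapped. Mylk2, the gene higher with D + Q, had 775, 614, 794, 851 and 819 CPM in vehicle sham and 793, 772, 1053, 1106 and 882 in D + Q sham mice (0.25 ± 0.112, unadjusted p = 0.0492 from edgeR).

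By sign, 51.4% of all tested genes were lower in D + Q sham than in vehicle sham muscle. All 8 slow genes were, with a median log2 fold change of -0.34. Without vehicle sham mouse 3, the highest of its group in 7 of them, 7 of 8 were lower and the median was -0.082. Tnni1 and Tnnc1 had log2 fold changes of -1.35 ± 0.779 and -1.34 ± 0.791 (unadjusted p = 0.120 and 0.129 from edgeR), and -0.30 and -0.40 without that mouse. The slow myosin heavy chain Myh7 showed the same mouse, with 30.2, 9.40, 358, 80.3 and 62.7 CPM in vehicle sham mice.

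Non-fibre markers were read in sham muscle as well. Of 7 fibroblast markers, 0 passed an adjusted p under 0.05 and 5 were higher with D + Q at an unadjusted p under 0.05, where 5.39% of all genes were. Their median was 0.55 on the log2 scale, with summed levels of 454 to 679.8 CPM in vehicle sham and 564 to 1218 in D + Q sham mice. Of 17 tested contractile genes of non-muscle and smooth muscle cells, 2 were called higher with D + Q, where 0.215% of all genes were called in either direction. At an unadjusted p under 0.05, 7 of them were higher, where 5.39% of all genes were. The part of these markers and genes in the sarcomere values was not tested.

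The interaction, which asks whether D + Q changed the overload response, was called for 0 of the 39 genes by edgeR or DESeq2 and for 0.0127% of 15700 tested genes in edgeR. At an unadjusted p under 0.05, Acta1 alone passed, where 2.54% of all genes had a larger and 3.17% a smaller response with D + Q. Its levels are given above, and the interaction was -0.31 ± 0.126 on the log2 scale, a lower response with D + Q (unadjusted p = 0.0211, adjusted p = 0.809 from edgeR). Leaving out single mice gave values of -0.37 to -0.25. Without vehicle MOV mouse 5, 0 of the 39 passed, and without vehicle MOV mouse 4, 4 did (Acta1, Mybph, Myom3 and Des). For Tnni1, Tnnc1, Tnnt1 and Tpm3, whose estimated responses were larger with D + Q, the interaction was 1.18 ± 0.778, 1.10 ± 0.806, 0.60 ± 0.567 and 0.55 ± 0.453 (unadjusted p = 0.147, 0.190, 0.303 and 0.239 from edgeR). Without vehicle sham mouse 3 these became 0.15, 0.18, 0.0017 and 0.084. For Mybph and Des, whose estimated responses were smaller with D + Q, it was -1.77 ± 0.869 and -0.29 ± 0.146 (unadjusted p = 0.0581 and 0.0616 from edgeR), and Mybph was at -1.02 without vehicle MOV mouse 5. The comparisons share groups of mice, so they are not independent of one another.

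**Figure D5:**
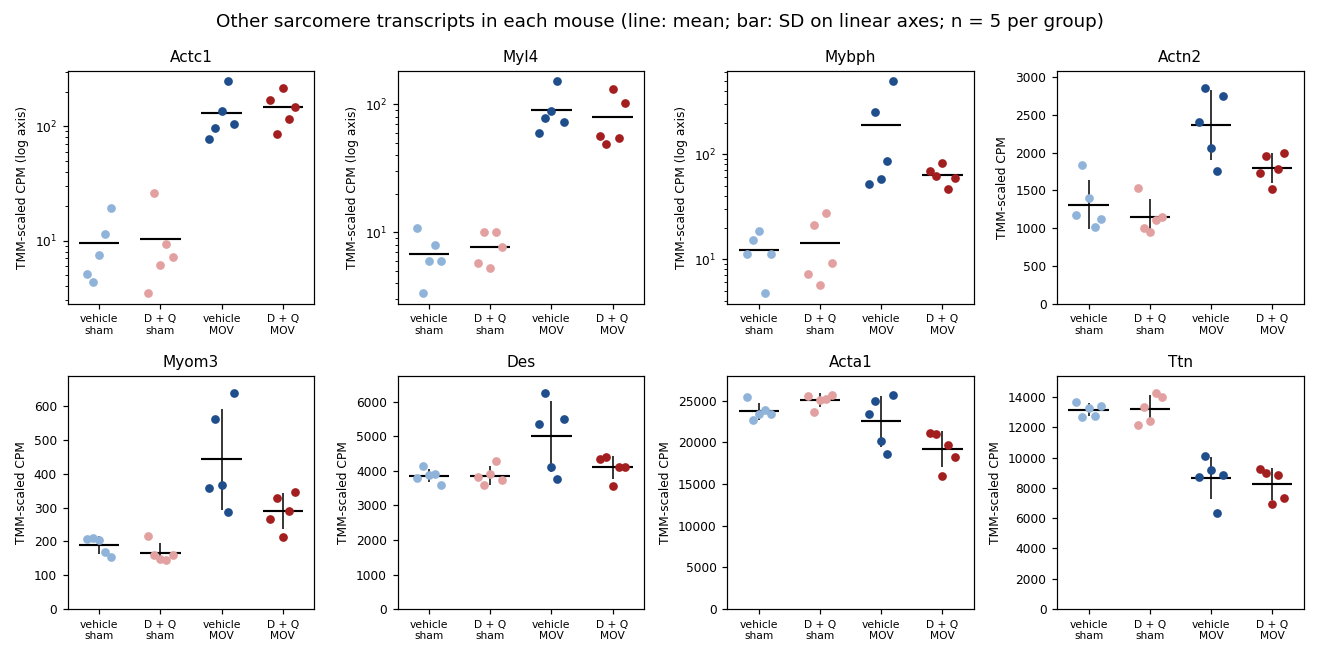
Levels of 8 other sarcomere genes in TMM-scaled CPM for each of the 5 mice of the 4 groups, with a line at the mean, a log axis for Actc1, Myl4 and Mybph, and linear axes from 0 with SD bars for the rest. Mybph spans 52.3 to 494 CPM in vehicle MOV and 46.8 to 82.6 in D + Q MOV mice, and Acta1 spans 16007 to 21128 in D + Q MOV and 23637 to 25699 in D + Q sham mice.

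The myosin heavy chains, which pair with these light chains in the thick filament, give the fibre type beside them. Myh4, the type 2B chain, fell with a log2 fold change of -1.56 ± 0.101 with vehicle and -1.51 ± 0.103 with D + Q (adjusted p = 1.59e-08 and 9.89e-10). Its ranges were 50269 to 66279 CPM in vehicle sham, 17306 to 21651 in vehicle MOV, 57759 to 67533 in D + Q sham and 16396 to 24875 in D + Q MOV mice. The type 2A chain Myh2 rose by 0.74 and 0.50, the embryonic Myh3 by 5.03 and 4.77 and the neonatal Myh8 by 3.21 and 2.701. Myh7 rose with D + Q (3.14, adjusted p = 0.000893) and was not called with vehicle (1.74, adjusted p = 0.144). Myh1, the type 2X chain, had 0.33 and 0.22 and was not called. Vehicle MOV mouse 4, the highest of its group in Actc1, Myl4 and Tnnt2, was also the highest in Myh3, and D + Q MOV mouse 3, the highest in the same 3 genes, was second to mouse 5 in Myh3.

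Genes outside the 39 that build or surround the sarcomere moved in both directions. Of 33 other sarcomere and myofibril genes, 32 were tested with vehicle, 11 were higher and 13 lower, and with D + Q 10 of 33 were higher and 16 lower. Over all tested genes, 30.7% were higher and 29.8% lower with vehicle, and 34.4% and 30.9% with D + Q. Csrp3, the muscle LIM protein of the Z-disc, rose by 3.46 and 2.37, and Myl6b, a light chain of slow and non-muscle myosin, by 2.43 and 1.81. Trim55, a ubiquitin ligase near titin, fell with log2 fold changes of -0.66 and -0.61. Of 15 tested assembly and chaperone genes, 5 were higher and 8 lower with vehicle and 6 and 7 with D + Q. The myosin chaperone gene Unc45b fell (-0.71 and -0.86), and Hspb1 rose (1.68 and 0.87).

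Of 12 other muscle fibre genes, such as those of the junctophilins and dystrophin-associated proteins, 1 was higher and 9 lower with vehicle (median -0.53), and 1 was higher and 10 lower with D + Q (median -0.55). Over all tested genes, 29.8% were lower with vehicle and 30.9% with D + Q. Most non-fibre markers rose with MOV in both treatments. Fibroblast markers rose in 7 of 7 genes with vehicle and 7 of 7 with D + Q, with summed levels of 454 to 679.8 and 564 to 1218 CPM in vehicle and D + Q sham and 5956 to 11801 and 10555 to 14658 in vehicle and D + Q MOV mice. Macrophage markers rose in 7 and 8 of 8 genes, with sums of 57.8 to 148 and 63.9 to 153 CPM in vehicle and D + Q sham and 275 to 817 and 597 to 713 in vehicle and D + Q MOV mice. Satellite cell and myoblast markers rose in 6 and 6 of 7 genes, with sums of 22.4 to 32.0 and 26.7 to 33.7 CPM in sham and 74.2 to 95.6 and 66.3 to 88.7 in MOV mice. Endothelial markers rose in 5 and 5 of 6. Of 5 Schwann cell markers, 2 were higher with vehicle, and with D + Q 2 were higher and 1 lower (Mbp, myelin basic protein), where 30.7% and 34.4% of all genes were higher. The contractile genes of non-muscle and smooth muscle cells rose in 16 of 18 with either treatment. The counts for these lists are from TMM scaling, and the part of these cells in the sarcomere results was not tested.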

How the data were processed

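Gene counts of 20 plantaris libraries were used. The authors aligned reads with STAR 2.7.8a and quantified genes in Partek, per the labels and the methods of the study, against GRCm39, and the deposited table holds estimated counts per gene that need not be whole (29.8% of values are not). Strand use in counting was not given in the sources used here, so reads of overlapping genes on opposite strands cannot be told apart. The counts were rounded, and edgeR 4.0.16 (R 4.3.3) quasi-likelihood tests with TMM factors were fitted per comparison on genes that reached 10 counts in 5 or more mice, adjusted by Benjamini-Hochberg over all genes tested, with a threshold of 0.05. The study's own analysis used DESeq2, which is an alternative here (1.42.0), beside limma 3.58.1. Totals were 17887532 to 26234518 counts per mouse. Values after ± are SDs over mice for levels and shares, and standard errors for log2 fold changes. These standard errors were derived from the fold change and the F statistic of the edgeR test. Mice are numbered as in the titles, and the labels give no batch. Of 40 library pairs within groups, none differed by as little as sampling noise.

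The genes and lists were chosen with earlier results of these data known. Genes with per-mouse values were the 6 largest rises and the 6 largest falls with vehicle MOV among the 39, those at an unadjusted p under 0.05 between treatments or for the interaction, and Acta1, Actn3, Ttn and Des; each other gene is given by its fold change or mean. The edgeR test was checked on simulated data for MOV against sham with vehicle only. Few genes changed there, up or down at random, so the choice of scaling was not checked. The alternatives were DESeq2, its size factors, total counts, TMM without the 39 genes and myosin heavy chains, scaling to 12 other muscle fibre genes, no count filter, a minimum of 50 counts, limma-voom, all 20 mice in one fit, a replicate block and leaving out each mouse.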

Additional observations from a re-analysis of the deposited data

Results flagged for a closer look

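In 11 of 156 groups of 5 mice (39 genes in 4 groups), 1 mouse lay apart from the other 4 by Dixon's criterion, which chance gives in about 1 of 20 groups. Vehicle sham mouse 3 was apart in 4 slow genes, with 39.4 CPM of Tnnc1 against 10.8 in the next mouse, 35.4 against 8.04 of Tnni1, 72.0 against 25.97 of Tnnt1, and 94.2 against 40.6 of Tpm3. Within D + Q sham, mouse 2 had the lowest Acta1 (23637 CPM, next 25141) and the highest Actc1 (25.8 CPM, next 9.38). Mouse 4 of that group had the highest Myom1 (2351 CPM, next 2052) and the lowest Myoz3 (314 CPM, next 375), and mouse 1 had the highest Myom3 (215 CPM, next 160.0). In vehicle MOV, mouse 5 had the highest Tnnc2 (6038 CPM, next 5181) and mouse 4 the lowest Tnni2 (4090.1 CPM, next 4682).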

How the results depend on the processing

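Between MOV and sham, the calls depended on scaling. Scaling to other muscle fibre genes gave 21 higher and 9 lower of the 39 genes with vehicle and 22 higher and 12 lower with D + Q. Over all tested genes it called 7713 higher and 1030 lower with vehicle, and 9273 and 1012 with D + Q. Fold changes changed sign in vehicle mice with total counts only for Acta1 (0.31), Myl1 (0.27), Tpm2 (0.27), Myot (0.19), Ldb3 (0.20) and Lmod3 (0.24), and with scaling to fibre genes for Acta1 (0.36), Myl1 (0.32), Myom2 (0.029), Tpm2 (0.32), Myot (0.23), Ldb3 (0.24) and Lmod3 (0.30). In D + Q mice they did so with total counts only for Acta1 (0.025), Myl1 (0.28), Myl3 (0.018), Myom2 (0.085), Tpm2 (0.14), Myot (0.15), Ldb3 (0.20) and Lmod3 (0.32), and with scaling to fibre genes for Acta1 (0.13), Mybpc1 (0.083), Myl1 (0.39), Myl3 (0.14), Myom2 (0.19), Tpm2 (0.24), Myot (0.26), Myoz3 (0.050), Ldb3 (0.30) and Lmod3 (0.43). Both settings also moved the median of all genes upward. Over fits without 1 mouse, Acta1 with vehicle ran from -0.095 to 0.016 (without vehicle MOV mouse 4) and Lmod3 with D + Q from -0.11 to 0.0041 (without D + Q sham mouse 1). Leaving out each mouse gave 12 to 14 higher and 17 to 18 lower genes with vehicle, 13 to 14 and 19 to 21 with D + Q, and 0 between treatments or for the interaction. Actc1 with D + Q, at 3.89, was 4.52 without D + Q sham mouse 2. Titles share replicate numbers across groups, but same-numbered mice correlated between -0.15 and 0.185 (2 of 30 pairs over 0.1) and fitted best to their own number in 5 of 30, so the title numbers gave no sign of pairing. The column names number sham and MOV mice with different offsets from the titles. Matching sham to MOV mice by those names was not tested, nor was a shared batch. A replicate block gave 13 higher and 18 lower with vehicle, 13 and 20 with D + Q, and 0 in the other comparisons. In vehicle sham, the lowest transcript, Tnnt2, rests on 13 to 43 counts per mouse.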
